A study of Mus musculus with 21 samples.

Results

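The genes described here are 39 type I interferon response genes of the mouse, taken by their symbols from the 49652 genes in the count files and followed in 21 mammary tumors. All 39 passed the filter on low counts and were among the 19315 genes tested. The smallest number of reads on any of them in any tumor was 15. The chosen genes are 3 signaling components and transcription factors, 3 sensors and kinases that act on nucleic acids, 4 IFIT genes, 5 OAS genes, 6 other antiviral effectors, 4 genes of the ISG15 system, 3 genes of the PARP9, PARP14 and DTX3L group, 5 genes of antigen processing and the guanylate-binding proteins (GBPs), and 6 other induced genes.

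The tumors arose in female virgin mice. Control tumors (9 tumors, 9 mice) carried FloxNeoNeuNT, in which activated Neu is expressed from the *Erbb2* locus once Cre has removed a stop cassette, together with the MMTV-CreNLST transgene, which supplies Cre to mammary epithelium. RhoC tumors (12 tumors, 8 mice) carried both of these and, in addition, R26(RhoC/+), an allele at the *Rosa26* locus that expresses wildtype mouse RhoC after Cre. Of the control mice, 7 also carried Gata4(loxP/+), and the remaining 2 (tumors N-15 and N-17) did not. None of the RhoC mice carried it. Cohort and Gata4 genotype thus go together in most tumors, and their parts in a difference cannot be told apart. Mouse P497 gave 4 RhoC tumors, R-13 to R-16, and mouse N9255 gave R-6 and R-7. The label of R-18 names no mouse, so R-18 was counted as a mouse of its own. The labels give no age. The question asked of each gene was whether its level differed between RhoC and control tumors.

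Type I interferons (the interferon alphas and interferon beta) signal through the IFNAR1 and IFNAR2 receptor chains and the kinases JAK1 and TYK2. STAT proteins, among them STAT2, then act with IRF9 in a complex that binds interferon-stimulated response elements (ISREs) in the promoters of their target genes. Many products of these genes block viral replication or display antigen, and in tumors the same genes can be expressed by cancer cells as well as by stroma and immune cells.

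Total counts per tumor ranged from 47309780 to 100741339 reads, and no pair of tumors had identical counts. *Rhoc* itself, whose reads include those of the mouse RhoC transgene, measured between 22.8 and 148 CPM (the reads on a gene relative to the total of its library, with libraries scaled by the trimmed mean of M-values) in RhoC tumors and between 25.98 and 172 in control tumors, so the cohorts overlapped. The library labeled R-2, a RhoC tumor, had the lowest *Rhoc* level of all 21 tumors, below every control. The fitted log2 fold change of *Rhoc* was 0.19 (edgeR quasi-likelihood test, Benjamini-Hochberg adjusted p = 0.774). The luminal epithelial markers *Epcam*, *Krt8*, *Krt18*, *Krt19* and *Cdh1* summed to between 1088 and 5680 CPM in the 21 tumors, and the pan-leukocyte markers to between 86.5 and 485. These are libraries of whole tumor tissue, in which fewer cells of a type and less RNA per cell cannot be told apart.

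The ISRE was searched for in the promoters of the 39 genes because it is the element bound by the complex of STAT proteins and IRF9. RefSeq promoters on GRCm38.p6, from 250 bases before to 50 bases after the start of transcription, were at hand for 30 of the 39. *Rtp4*, *Mx2*, *Parp9*, *Parp14*, *Oas2*, *Zbp1*, *Usp18*, *Mx1* and *Ifi27* have no entry. The ISRE letters searched were GAAA, any 2 bases, and GAAA, on either strand, and they were present for 13 of the 30 genes (43.3%), compared with 3.99% of all 27025 genes with an entry and 3.88% of the 12356 tested genes with one. Matches were allowed to overlap each other. For the gamma-activated sequence, TTC and GAA with any 3 bases between them, the shares were 5 of 30 (16.7%) and 9.55%. Of the 21 ISRE matches in the 30 genes, 15 began within 150 bases before the start. Stretches of at most 30 bases are shown for genes whose values follow, each along the strand of its gene from 5′ to 3′ with the matching letters in capitals. A match on the opposite strand appears as TTTC, any 2 bases, and TTTC.

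Ifit1 (chr19:34640775-34640804, plus strand): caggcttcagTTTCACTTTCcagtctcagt
Ifit1, second match (chr19:34640794-34640823, plus strand): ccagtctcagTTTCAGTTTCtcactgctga
Ifit3 (chr19:34583397-34583426, plus strand): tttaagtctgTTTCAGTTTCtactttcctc
Ifit3b (chr19:34607793-34607822, plus strand): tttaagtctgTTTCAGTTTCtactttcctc
Isg15 (chr4:156200871-156200900, minus strand): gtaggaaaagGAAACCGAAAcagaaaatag
Gbp2 (chr3:142620594-142620623, plus strand): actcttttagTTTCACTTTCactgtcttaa
Gbp3 (chr3:142559989-142560018, plus strand): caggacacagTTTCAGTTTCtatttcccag
Rsad2 (chr12:26456553-26456582, minus strand): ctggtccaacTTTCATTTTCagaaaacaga
Oas3 (chr5:120777715-120777744, minus strand): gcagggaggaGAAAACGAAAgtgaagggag
Eif2ak2 (chr17:78882535-78882564, minus strand): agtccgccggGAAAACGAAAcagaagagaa

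The stretches of *Ifit3* and *Ifit3b* are letter for letter the same. Reads that matched both genes were discarded in counting, so their levels rest on the reads that tell them apart and are uncertain to that extent, as are those of *Oas1a*, which has near-identical neighbors. *Isg15* held 3 overlapping matches. In *Eif2ak2* the match begins 18 bases after the start of transcription. A match is a run of letters and does not show that a factor was bound.

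None of the 39 genes passed the test between RhoC and control tumors. With edgeR at an adjusted p under 0.05, 0 of 39 were called, where 0.223% of all tested genes were called, and adjusted p-values ran from 0.154 to 0.94. At an unadjusted p under 0.05 the count was 4 of 39, all 4 with the lower fitted level in RhoC tumors, compared with 20.5% of all tested genes in either direction and 9.93% in the lower direction. DESeq2 also called 0 of 39 (smallest adjusted p = 0.0703, *Rsad2*), where it called 6.24% of all genes with an adjusted p. The fitted values were on the low side in RhoC tumors for most genes. The fitted log2 fold change was below 0 for 35 of 39, compared with 50.4% of all tested genes, and its median was -0.64 over the 39 and -0.01 over all tested genes.

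The direction of these fitted values depended on a single control tumor, N-15. Of the controls without Gata4(loxP/+), a fit without N-15 keeps N-17 alone. Without N-15 the fitted change was below 0 for 20 of 39 (49.6% of all genes tested), the median was -0.01 (0.01 over all genes), and edgeR called 0 of 39, with 1.77% of all genes called. No gene of the 39 had an unadjusted p under 0.05 in that fit, compared with 23.2% of all genes, and DESeq2 without N-15 called 0 of 39, with 10.2% of all genes called. For none of the 39 did the call differ between the fits with and without N-15. Without the library labeled R-2, 0 of 39 were called, 36 had a fitted change below 0 and the median was -0.70. With the counts of each mouse summed, so that no mouse entered more than once, the median was -0.50 with N-15 and -0.02 without it.

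**Figure D1:**
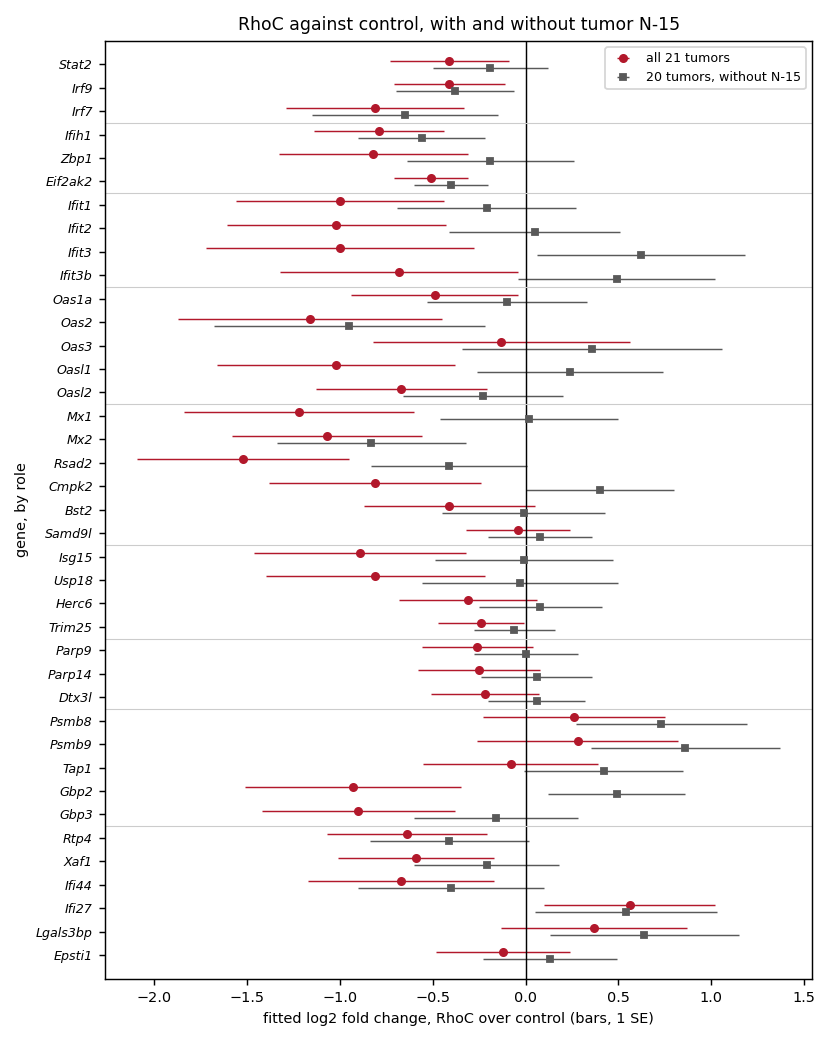
Fitted log2 fold change of RhoC over control tumors (x axis, bars give 1 SE) for each of the 39 genes (y axis, ordered by role), from all 21 tumors (red circles) and from the 20 tumors without N-15 (grey squares). With all tumors 35 of the 39 circles lie left of 0. Without N-15, 20 of the squares do.

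N-15 had the highest level of all 21 tumors for 30 of the 39 genes, where it was highest for 5.5% of all tested genes, and the highest level of the 9 controls for 34. Its level divided by the median of the other 8 controls ranged from 0.888 to 19.7 over the 39, with a median of 4.27 (0.977 over all tested genes). The ratio passed 10 for 11 of the 39 genes (1.13% of all tested genes), and for 13 of them N-15 exceeded even the next highest tumor by more than 2 times (0.735% of all tested genes). The genes in which another tumor was highest were *Irf9*, *Oas2*, *Oas3*, *Mx2*, *Samd9l*, *Psmb9*, *Ifi27*, *Lgals3bp* and *Epsti1*. By Dixon's gap test on the 9 controls, N-15 stood apart from the others for 5 of the 39 genes, compared with 0.642% of all tested genes for N-15 as the highest control and 6.85% for any control at either end. N-15 was singled out by earlier results on these data, so these values, the gap test among them, describe a tumor already chosen for its high levels and are not independent support.

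**Figure D2:**
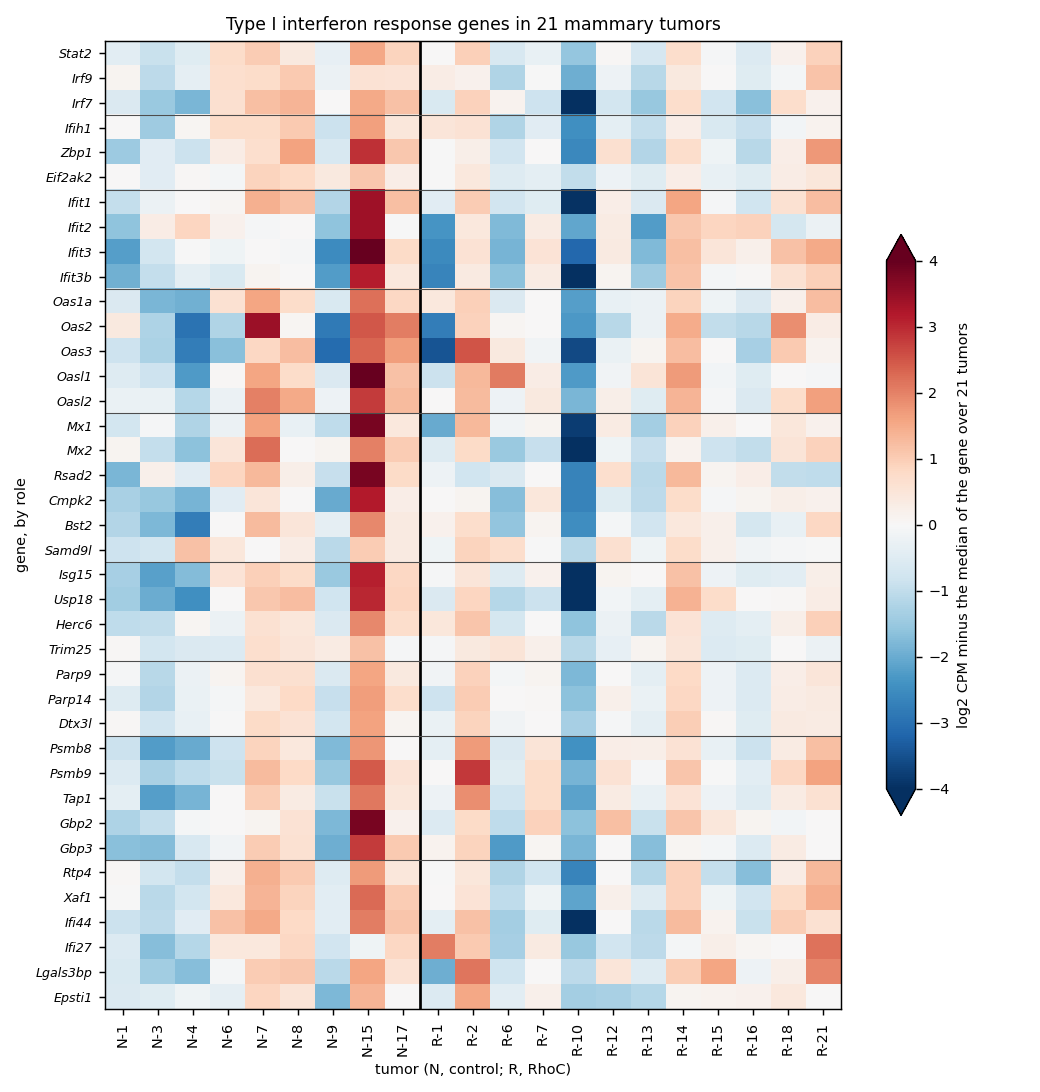
Level of each of the 39 genes (rows, ordered by role) in each tumor (columns, 9 controls left of the line and 12 RhoC tumors right of it), as log2 CPM minus the median of that gene over the 21 tumors. N-15 is the darkest red column, with a median over genes of 2.12, and R-10 the darkest blue, with -2.19. Colors are capped at 4 in either direction.

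At the other end, the RhoC tumor R-10 had the lowest level of all 21 tumors for 30 of the 39 genes (5.74% of all tested genes) and the lowest of the 12 RhoC tumors for 35. The median RhoC level was 4.54 times that of R-10, as a median over the 39. R-2, R-21 and R-14 held most of the highest RhoC levels, for 15, 11 and 9 genes. Among the other 8 controls the highest level was found in N-7 for 23 genes, in N-8 for 8 and in N-17 for 6. N-3, N-9 and N-4 were the lowest controls by the median over the 39, at -1.04, -0.86 and -0.74 on the log2 scale relative to each gene's median. N-17, like N-15 without Gata4(loxP/+), lay at 0.70, and N-7 and N-8, which carried it, at 0.96 and 0.65.

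*Irf7*, a transcription factor that is itself induced and amplifies the response, measured 19.7, 110 and 202 CPM in control tumors (lowest, median and highest) and 3.97, 44.2 and 132 in RhoC tumors. N-15 and N-8 were the highest controls, R-10 stood far below all other tumors, and the cohorts otherwise overlapped. Its fitted log2 fold change was -0.81 ± 0.48 (SE, adjusted p = 0.339) and -0.65 ± 0.50 without N-15 (adjusted p = 0.437), which makes *Irf7* one of the genes whose value depended little on N-15. *Stat2* (-0.41 ± 0.32) and *Irf9* (-0.41 ± 0.30), both part of the ISRE-binding complex, had smaller fitted changes, with N-15 at 2.77 and 1.16 times the median of the other controls. Their fitted changes without N-15 were -0.19 ± 0.31 and -0.38 ± 0.32.

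The 3 sensors and kinases included 2 of the 4 genes with an unadjusted p under 0.05. *Eif2ak2*, which encodes the double-stranded RNA-dependent kinase PKR, measured 52.7, 86.5 and 152 CPM in controls and 36.1, 60.6 and 97.9 in RhoC tumors. The cohorts overlapped over most of their range, and N-15 was only 1.88 times the median of the other controls. The log2 fold change was -0.51 ± 0.20 (p = 0.0204, adjusted p = 0.174) and -0.40 ± 0.20 without N-15 (adjusted p = 0.235). *Ifih1*, which encodes the RNA sensor MDA5, had -0.79 ± 0.35 (p = 0.0337, adjusted p = 0.21) and -0.56 ± 0.34 without N-15. *Zbp1*, a sensor of left-handed nucleic acids, was 7.78 times the median of the other controls in N-15, and its fitted value moved from -0.82 to -0.19 when N-15 was left out.

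The IFIT genes, whose products bind foreign RNA and block its translation, had N-15 as the highest of all 21 tumors in 4 of 4. *Ifit1* measured 12.3, 29.1 and 289 CPM in controls, where N-7 was the next highest at 73.1, and 1.75, 23.2 and 81.8 in RhoC tumors. Apart from N-15 above and R-10 below, the cohorts covered the same range. The log2 fold change was -1.0 ± 0.56 (adjusted p = 0.312) and -0.21 ± 0.48 without N-15. *Ifit3* measured 1.29, 7.16 and 120 CPM in controls, where the next highest was N-17 at 12.8, and 0.812, 10.03 and 21.25 in RhoC tumors. N-15 was here 17.4 times the median of the other controls. The direction of *Ifit3* turned with that tumor, from -1.0 ± 0.72 (adjusted p = 0.436) to 0.62 ± 0.56 without it (adjusted p = 0.51), and *Ifit2* and *Ifit3b* also had fitted values above 0 without N-15, of 0.05 and 0.49.

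Several OAS proteins make the 2-5A messenger that activates RNase L, an activity that mouse OASL1 lacks. *Oasl1* had the largest ratio of N-15 to the median of the other controls of the 39 genes, at 19.7, while over the next highest tumor its ratio of 4.07 was below that of *Gbp2* (5.99), among others. It measured 1.49, 7.64 and 125 CPM in controls, with N-7 next at 21.95, and 1.49, 7.23 and 30.8 in RhoC tumors, of which R-6 was the highest. Its log2 fold change was -1.02 ± 0.64 (adjusted p = 0.368) and 0.24 ± 0.50 without N-15. *Oasl2*, the family member with the highest mean CPM, ran at 14.5, 28.0 and 225 CPM in controls and 9.04, 35.2 and 102 in RhoC tumors. In *Oasl2* the RhoC median was above the control median while the fitted value was -0.67 ± 0.46 (adjusted p = 0.414). Without N-15 the fitted value of *Oasl2* was -0.23 ± 0.43 (adjusted p = 0.776). In *Oas2* the highest tumor was N-7 at 159 CPM and N-15 followed at 82.9, and in *Oas3* R-2 was the highest at 128 CPM, followed by N-15 at 113. In *Oas2* the other 7 controls ran from 1.91 to 61.1 CPM (N-17) and the RhoC tumors from 2.16 to 54.5. The log2 fold change of *Oas2* was -1.16 ± 0.71 (adjusted p = 0.353) and -0.95 ± 0.73 without N-15. Without N-7 it was -0.47 (adjusted p = 0.726).

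**Figure D3:**
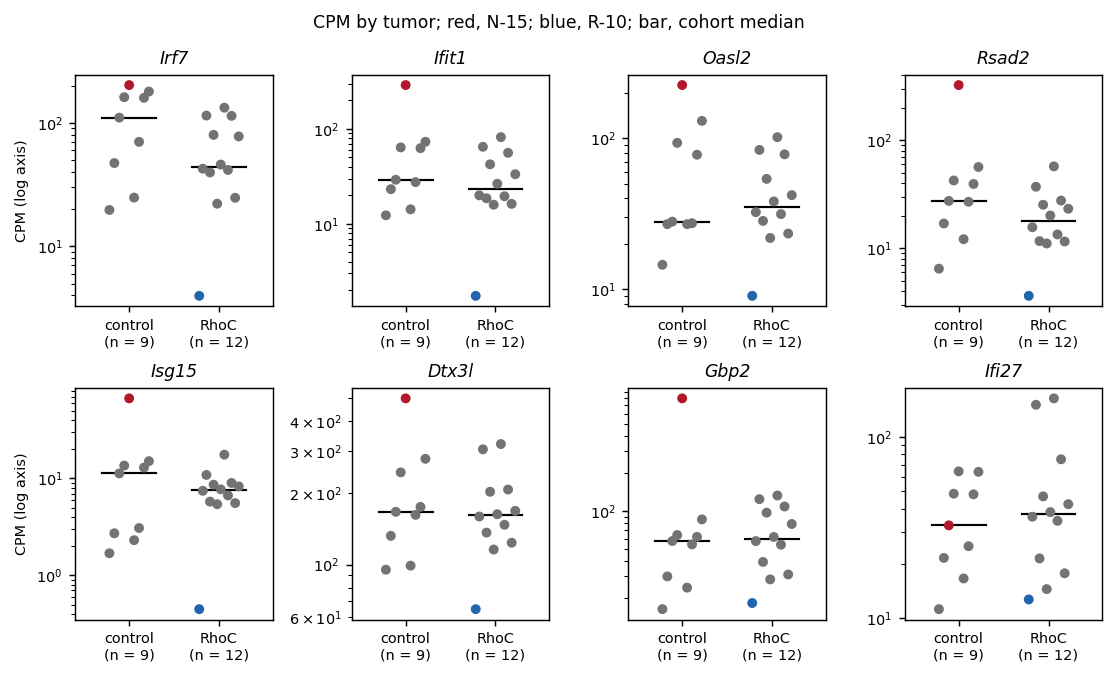
CPM of 8 of the genes in each tumor (log axis, 9 control and 12 RhoC tumors, bars at cohort medians), with N-15 in red and R-10 in blue. N-15 stands above all other tumors in every panel except *Ifi27*, where 4 other controls are higher, and R-10 is the lowest RhoC tumor in all 8.

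Among the other antiviral effectors, *Rsad2* had the smallest p of the 39 genes. It encodes viperin, which makes a nucleotide that stops viral RNA polymerases. *Rsad2* measured 6.48, 27.5 and 325 CPM in controls, with N-7 next at 56.7, and 3.63, 17.9 and 57.4 in RhoC tumors. N-15 was thus more than 5 times any other tumor, while the remaining controls and the RhoC tumors shared a range. The log2 fold change was -1.52 ± 0.57 (p = 0.0137, adjusted p = 0.154) and -0.41 ± 0.42 without N-15 (adjusted p = 0.569). *Cmpk2*, the gene next to *Rsad2* on chromosome 12, encodes a nucleotide kinase that supplies viperin with substrate. It measured 4.71, 13.9 and 173 CPM in controls and 2.99, 19.9 and 31.7 in RhoC tumors, and its fitted value went from -0.81 ± 0.57 (adjusted p = 0.419) to 0.40 ± 0.40 without N-15.

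*Mx1*, a GTPase that blocks influenza viruses, measured 3.49, 6.91 and 114 CPM in controls and 0.553, 8.93 and 20.01 in RhoC tumors. R-10 had the lowest value and N-15 the highest, at 16.9 times the median of the other controls. Its fitted value was -1.22 ± 0.62 (adjusted p = 0.269) with N-15 and 0.02 ± 0.48 without. *Mx2*, the fourth gene with an unadjusted p under 0.05, had N-7 as its highest tumor (36.8 CPM, N-15 31.7), with -1.07 ± 0.51 (p = 0.046, adjusted p = 0.236) and -0.83 ± 0.51 without N-15. *Samd9l*, an antiviral gene also known as a suppressor of myeloid growth, was the most abundant of this group by CPM and differed least, at 36.4, 94.9 and 173 CPM in controls and 36.2, 76.3 and 143 in RhoC tumors. Its log2 fold change was -0.04 ± 0.28 (adjusted p = 0.94), and N-4, not N-15, was highest. *Bst2*, which encodes tetherin, had -0.41 ± 0.46, and -0.01 ± 0.44 without N-15.

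*Isg15*, a ubiquitin-like protein that is attached to other proteins, measured 1.69, 11.3 and 67.1 CPM in controls and 0.449, 7.60 and 17.6 in RhoC tumors. The controls other than N-15 reached 15.1 CPM, and R-10 stood below all other tumors. The log2 fold change was -0.89 ± 0.57 (adjusted p = 0.379), and without N-15 it was -0.01 ± 0.48 (adjusted p = 0.992). *Usp18*, which removes ISG15 and restrains the receptor, went likewise from -0.81 to -0.03. The ubiquitin ligases *Herc6* (-0.31 ± 0.37) and *Trim25* (-0.24 ± 0.23) had smaller fitted changes, at 0.08 ± 0.33 and -0.06 ± 0.22 without N-15. *Trim25*, which attaches ubiquitin to RIG-I, had the highest mean CPM of the 4 at 88.1, 150 and 328 in controls and 67.7, 144 and 209 in RhoC tumors.

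*Parp9*, *Parp14* and *Dtx3l* lie side by side on chromosome 16, and PARP9 and DTX3L act as a pair in ADP-ribosylation and ubiquitin ligation. N-15 was the highest tumor and R-10 the lowest in 3 of 3. *Dtx3l* measured 95.1, 167 and 500 CPM in controls and 64.9, 161 and 321 in RhoC tumors, and *Parp9* 37.1, 85.5 and 234 against 23.0, 77.1 and 149. The fitted log2 fold changes lay between -0.26 and -0.22, and between 0.00 and 0.06 without N-15.

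In antigen processing the pattern was less one-sided. *Psmb8* and *Psmb9*, the immunoproteasome subunits, and *Tap1*, a subunit of the peptide transporter, lie together on chromosome 17. *Psmb8* measured 9.08, 24.1 and 147 CPM in controls and 8.03, 51.6 and 139 in RhoC tumors, with N-15 and R-2 at the top. Its RhoC median was above that of the controls, and so were those of *Psmb9* and *Tap1*. The fitted values were 0.26 ± 0.49 for *Psmb8*, 0.28 ± 0.54 for *Psmb9* and -0.08 ± 0.47 for *Tap1*. Without N-15 they were 0.73 ± 0.46, 0.86 ± 0.51 and 0.42 ± 0.43, the first of these with an adjusted p of 0.336.

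The guanylate-binding proteins are GTPases that attack intracellular pathogens and respond to interferon gamma as well as to type I interferon. *Gbp2* measured 16.4, 57.5 and 797 CPM in controls and 18.3, 59.7 and 133 in RhoC tumors. The next control after N-15 was N-8 at 85.7 CPM and the other controls overlapped the RhoC tumors. The log2 fold change of *Gbp2* was -0.93 ± 0.58 (adjusted p = 0.366) and 0.49 ± 0.37 without N-15 (adjusted p = 0.423). *Gbp3* measured 8.96, 31.4 and 243 CPM in controls and 7.12, 34.7 and 64.3 in RhoC tumors, with -0.90 ± 0.52 (adjusted p = 0.328) and -0.16 ± 0.44 without N-15.

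**Figure D4:**
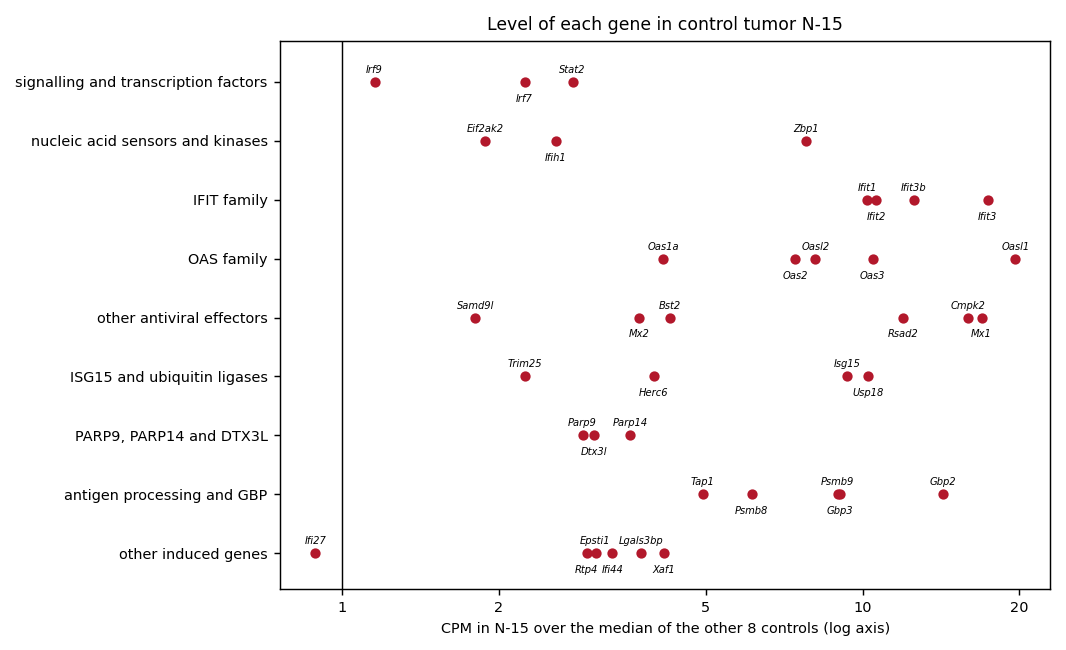
CPM in N-15 divided by the median of the other 8 control tumors (log axis) for each of the 39 genes, by role. The IFIT genes run from 10.2 to 17.4, the ratio of *Oasl1* is the highest at 19.7, and only *Ifi27* lies below 1.

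Of the remaining induced genes, *Rtp4*, a chaperone of receptor transport, had the smallest p, at 15.4, 34.7 and 97.5 CPM in controls and 4.82, 23.8 and 74.1 in RhoC tumors (log2 fold change -0.64 ± 0.43, adjusted p = 0.4). *Lgals3bp*, a secreted galectin-binding glycoprotein, was the most abundant at 37.9, 118 and 370 CPM in controls and 32.1, 135 and 544 in RhoC tumors, of which R-2 was highest. Its log2 fold change was 0.37 ± 0.50 (adjusted p = 0.697), with 0.64 without N-15, 0.22 without N-4, 0.13 without R-2 and 0.18 without R-21. *Ifi27* was the gene least like the others, since N-15 was below the control median of the other 8 (ratio 0.888) and R-21, at 163 CPM, was the highest tumor. *Ifi44*, *Xaf1* and *Epsti1* had -0.67, -0.59 and -0.12, and -0.40, -0.21 and 0.13 without N-15.

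By role, the median ratio of N-15 to the other controls was highest for the IFIT genes at 11.6, followed by antigen processing and GBPs at 8.95, the OAS genes at 8.11 and the other antiviral effectors at 8.11. It was lowest for the signaling components and transcription factors at 2.24, the sensors and kinases at 2.58 and the PARP9, PARP14 and DTX3L group at 3.04. The 13 genes with an ISRE match had a median ratio of 9.34 (range 1.88 to 17.4) and the 17 with a promoter entry and no match 3.97 (1.16 to 19.7). The ranges overlapped, and no test was made of this difference. Per length of transcript, the deposited FPKM values (medians over the 21 tumors) were highest for *Lgals3bp* at 42.8, *Ifi27* at 35.04 and *Bst2* at 28.8, and lowest for *Mx1* at 2.21 and *Mx2* at 2.25.

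Tumors of a single mouse differed in these genes. Of the 4 tumors of mouse P497, R-14 had the highest level for 36 of the 39 genes, where it was the highest of the 4 for 17.6% of all tested genes. *Irf7* measured 24.7 CPM in R-13, 114 in R-14, 41.5 in R-15 and 22.1 in R-16. *Ifit1* measured 18.6, 81.8, 26.4 and 15.9 CPM in the same order. The highest of the 4 tumors was 3.28 times the lowest as a median over the 39 genes, compared with 2.03 over all tested genes. Over the 12 RhoC tumors this ratio was 12.8 (4.24 over all tested genes), and over the 8 controls other than N-15 it was 6.43 (3.71).

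Markers of other cells were set beside these differences. R-14 and R-13 had pan-leukocyte sums of 266 and 267 CPM and luminal epithelial sums of 3308 and 3426, while fibroblast markers summed to 1770 in R-14 and 9345 in R-13. T and NK cell markers summed to 3.80 CPM in R-13, 11.4 in R-14, 34.0 in R-15 and 22.4 in R-16, and macrophage markers to 292, 474, 1096 and 841, so both were higher in R-15 and R-16 than in R-14. R-15, with the highest macrophage sum of the 21 tumors, had interferon genes close to their medians (-0.06), and R-16 had them lower (-0.50). The part of these cells in the differences was not tested.

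**Figure D5:**
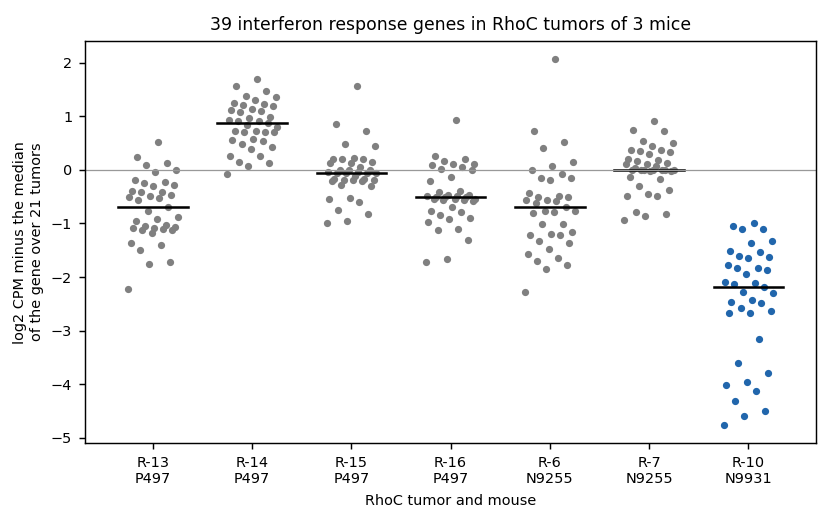
Level of the 39 genes (points, log2 CPM minus the median of each gene over 21 tumors, with the median over genes as a bar) in the 4 RhoC tumors of mouse P497, the 2 of mouse N9255 and R-10. In mouse P497 the bar lies at 0.88 in R-14 and at -0.68, -0.06 and -0.50 in R-13, R-15 and R-16.

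Markers of other cell types in N-15 were above the other controls for some lists and within their range for the rest. The summed CPM of each of the 12 marker lists (69 genes) lay in N-15 between the lowest and the highest of the other 20 tumors, and N-15 was the highest tumor for 3 of the 69 genes. Pan-leukocyte markers summed to 419 CPM in N-15, against 86.5 to 440 in the other controls and up to 485 in RhoC tumors. T and NK cell markers, at 23.5 CPM, and conventional dendritic cell markers, at 80.4, were above those of all other controls (up to 18.4 and 78.6) and below those of R-2 (39.9 and 189). The T cell gene *Cd8a* measured 3.28 CPM in N-15, compared with at most 1.44 (N-8) in the other controls and 4.40 in R-2, the only higher tumor. *Cd3e*, of the same list, was lower in N-15 (7.45 CPM) than in N-8 (7.93). N-15 was the highest of the 21 tumors for 1 of the 10 genes of that list. The macrophage sum was 905 (148 to 938 in the other controls), and the sums for plasmacytoid dendritic cells, at 158, and B cells, at 0.841, ranked 13 of 21. *Siglech*, of the plasmacytoid dendritic cell list, measured 1.15 CPM in N-15 and ranked 6. Neutrophil markers summed to 19.2, fibroblast markers to 2157, endothelial markers to 157 and skeletal muscle markers to 0.821, with *Myh2* and *Tnnt3* at 0 reads.

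Luminal markers summed to 3904 CPM in N-15, the second highest of 21, with *Krt8* at 1554 and *Krt18* at 953 CPM the highest of all tumors. *Epcam*, of the same list, was at 490 CPM and ranked 15 of 21. The adipocyte markers *Adipoq*, *Plin1*, *Cidec* and *Lep* had 0 reads there. *Erbb2*, the driver locus, was at its lowest of the 21 tumors in N-15, at 57.9 CPM compared with 600 to 2725 in the other controls and 256 to 1851 in RhoC tumors. *Gata4*, which did not pass the filter, was at its highest there, at 50.04 CPM. It had a median of 0.00907 CPM in the other controls (highest 36.5) and reached at most 5.51 in RhoC tumors. The part of these in the levels of the interferon genes was not tested.

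R-10 differed from the other tumors in its tissue markers as well. Its luminal sum of 1088 CPM was the lowest of the 21 tumors and its skeletal muscle and endothelial sums of 596 and 474 CPM were each the second highest, while its pan-leukocyte sum of 313 ranked 9. Fibroblast and adipocyte markers, at 4623 and 45.1 CPM, ranked 3, and macrophage markers, at 877 CPM, ranked 4. The plasmacytoid dendritic cell list, at 483 CPM, was the highest of the 21 tumors, with its defining gene *Siglech* at 1.66 CPM, ranking 3. T and NK cell markers, at 5.2 CPM, and conventional dendritic cell markers, at 25.2, ranked 18. The library labeled R-2, which held the most of the highest RhoC levels of the interferon genes and had the lowest *Rhoc* level of all tumors (22.8 CPM), had the highest sums of the 21 tumors for pan-leukocyte markers (485 CPM), T and NK cells, B cells (2.86 CPM) and conventional dendritic cells. *Siglech* was highest in R-2 as well, at 9.95 CPM, while the plasmacytoid dendritic cell list ranked 11 there. The part of these markers in the low levels of R-10 and the high levels of R-2 was not tested.

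Few reads were counted on the interferons themselves. The interferon alpha genes are close paralogs, and reads that matched more than 1 gene were discarded, so their counts are lower limits. The 18 type I interferon genes together had 109 reads over all 21 tumors, between 0 and 15 in a tumor, and 0 in N-15. A count of 0 allows up to 3 counted reads, or between 0.0341 and 0.063 CPM depending on the tumor, and this limit covers counting error only. *Ifng* had 3 reads in N-15 and at most 13 in a tumor (R-2). None of the 21 ligand genes, which include 2 interferon lambdas, passed the filter, so no difference between cohorts could be detected at this depth.

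The receptor and JAK-STAT list (15 genes, all tested) had no gene called in either direction, no gene with an unadjusted p under 0.05, 1 called by DESeq2 where it called 6.24% of all genes (*Socs1*, with a fitted value above 0 while that of edgeR was below), and 6 of 15 fitted values below 0. *Ifnar1* measured 79.2 to 138 CPM in RhoC tumors, 85.2 to 152 in the other controls and 108 in N-15, and *Ifnar2*, *Jak1* and *Tyk2* were in N-15 between 0.839 and 0.984 times the median of the other controls. The 2 smallest p-values were those of *Tyk2* (log2 fold change 0.29, adjusted p = 0.333) and *Ifngr2*, a chain of the interferon gamma receptor (0.26, adjusted p = 0.491). *Socs1*, an induced inhibitor of JAK kinases that was chosen here after its values were seen, measured 23.6 CPM in N-15, 0.105 to 1.75 in the other controls and 0.579 to 7.92 in RhoC tumors. Its log2 fold change was -0.11 (adjusted p = 0.951) in all tumors and 2.27 ± 0.55 without N-15 (adjusted p = 0.0436), the 1 gene of the 15 called in that fit, where 1.77% of all genes were called.

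Genes that sense nucleic acids and induce interferon (16 tested) had 0 called, 2 with an unadjusted p under 0.05 and 1 called by DESeq2 (*Ikbke*), where the shares over all tested genes were 20.5% and 6.24%. The smallest p-values were those of *Ikbke*, a kinase upstream of IRF3 (log2 fold change 1.59, adjusted p = 0.0815, highest in R-6 at 106 CPM), and of *Tlr7*, an endosomal RNA receptor (-0.89, adjusted p = 0.185). Of 71 further induced genes tested, 0 were called (8 with an unadjusted p under 0.05, 2 called by DESeq2, *Ifi207* and *Gbp8*, with 20.5% and 6.24% over all genes), 54 had a fitted value below 0 (31 without N-15), and N-15 was the highest of 21 tumors for 48. Their median log2 fold change was -0.49, and 0.06 without N-15. The smallest p-values of these were those of *Ifi207* (-1.21, adjusted p = 0.106), of the interferon-inducible p200 family, and *Pnpt1*, an RNA-degrading enzyme of mitochondria (-0.44, adjusted p = 0.143). With edgeR, *Gbp8* had -0.26 (adjusted p = 0.916) in all tumors and 3.62 ± 1.04 without N-15 (adjusted p = 0.0669).

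Genes known to respond more to interferon gamma than to type I interferon did not share one direction. Of 12 tested, 0 were called (1 with an unadjusted p under 0.05, 1 called by DESeq2, *Ciita*, with 20.5% and 6.24% over all genes), 5 had a fitted value below 0, and 0 did without N-15, with medians of 0.24 and 1.09. The chemokines *Cxcl9* (-1.04), *Cxcl10* (-0.69) and *Cxcl11* (-1.01), the transcription factor *Batf2* (-0.87) and *Nos2* (-0.20) were the 5 below 0. The smallest p-values were those of *Ciita*, which controls MHC class II genes (1.32, adjusted p = 0.126), and *H2-Aa*, a class II chain (0.98, adjusted p = 0.319). N-15 was the highest tumor for 6 of these 12. *Cxcl9*, given by level here after its values were seen, measured 186 CPM in N-15, 0.515 to 12.7 in the other controls and up to 74.9 in RhoC tumors, and *Irf1* measured 152 CPM against 12.4 to 36.5 and up to 62.8. *Ido1*, a tryptophan-degrading enzyme named on the same ground, did not pass the filter. It measured 77.8 CPM in N-15 and at most 0.248 in the other controls and 8.29 in RhoC tumors.

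Across mice, *Irf7* was set against single genes (log2 CPM averaged over the tumors of each mouse, 17 mice, two-sided permutation tests with 100000 resamples, p adjusted over the 6 relations computed). No correlation passed the adjusted threshold for the leukocyte gene *Ptprc* (r = 0.06, rho = 0.12), the T cell gene *Cd8a* (r = 0.44, rho = 0.52, adjusted permutation p = 0.216 and 0.102), the plasmacytoid dendritic cell gene *Siglech* (r = -0.01, rho = 0.09), *Epcam* (r = 0.37, rho = 0.09) or *Rhoc* (r = 0.10, rho = 0.14). For these 5 the permutation p of r before adjustment ran from 0.0721 to 0.98, that of rho from 0.0341 to 0.738, and r without the 2 farthest mice was 0.00, 0.60, -0.15, -0.04 and 0.39, in the order given. The interval that a sample of 17 mice leaves around such values is wide, so a p that misses the threshold does not show that the levels were unrelated.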

How the data were processed

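Bulk RNA of 21 tumors was sequenced after ribosomal RNA depletion (Illumina Stranded Total RNA Prep with Ribo-Zero Plus). The deposited counts are whole reads for every gene and tumor, with no normalization by the authors. They were made by trimming with Trim Galore 0.5.0, alignment with STAR 2.6.0c to GRCm38.p6 and counting of uniquely mapped reads with HTSeq 0.6.1p2. Reads on more than 1 gene were discarded, and whether counting used the strand is not given in the sources used here. FPKM values in the tables the authors deposited were used for levels per length only. The log2 fold changes and p-values of their own comparisons were not used.

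Counts were tested with edgeR 4.0.16 (TMM, filterByExpr by cohort, glmQLFit and glmQLFTest, no covariates) over 19315 genes, with Benjamini-Hochberg adjustment over all of them and calls at 0.05. The SE is the log2 fold change divided by the square root of F. Tumors of a mouse were treated as separate samples. Log2 CPM used a prior count of 2. Alternatives used DESeq2 1.42.0 and limma 3.58.1. The steps were tested on simulated data. The 39 genes, the other lists and the choice of N-15 were made with earlier results of these data known. Genes given in full are, in each role, the one with the smallest p and the one with the highest mean CPM, the 5 with the largest ratio of N-15 to the other controls, and the 2 with the smallest p in each further list. The alternatives also covered library size, the low-count filter, mouse sums, the controls used and tumors left out. Promoter sequences are from RefSeq. Which of tumors R-20 and R-21 the R-21 counts belong to is not settled, and both are RhoC tumors. Of the 6 relations with *Irf7*, 1 is not reported here.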

Additional observations from a re-analysis of the deposited data

Results flagged for a closer look

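In the 9 control tumors, the highest log2 CPM stood apart from the rest for 5 of the 39 genes by Dixon's gap test at its 95% critical value, and in each of the 5 the tumor was N-15. The gap to the next tumor, as a share of the range of the group, was 0.504 for *Ifit2*, 0.496 for *Ifit3*, 0.505 for *Ifit3b*, 0.517 for *Cmpk2* and 0.574 for *Gbp2*. Chance flags about 1 in 20 groups. Over all tested genes, N-15 stood apart as the highest control for 0.642%, and any control at either end for 6.85%. *Ifit3* and *Ifit3b* share sequence, and all 5 flags are of N-15, a tumor already chosen for its high levels. The 5 flags are therefore neither separate evidence nor independent support.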

How the results depend on the processing

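The count of called interferon genes was 0 as reported and in all 31 alternative fits, and the adjusted p of each of the 19 interferon genes of the 39 that are given in full stayed above 0.05. The number with a fitted value below 0 (35 of 39 as reported) was 20 without N-15, 16 with only the 7 Gata4(loxP/+) controls, which also leaves out N-17, 21 with mouse sums and without N-15, and 20 with DESeq2 and without N-15, the last 2 chosen after seeing the data. The median log2 fold change of the 39 was -0.42 with DESeq2, -0.65 with library size in place of TMM, -0.64 with all genes counted, -0.50 with mouse sums, -0.30 with voom and mouse as a random effect, 0.07 with the Gata4(loxP/+) controls, and -0.52 without the tumors of mouse P497. Leaving out 1 tumor at a time gave medians from -0.78 to -0.01 and between 20 and 36 genes below 0.

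All tested genes called numbered 43 as reported, 1206 with DESeq2 (1992 without N-15), 27 with library size, 3 with mouse sums (4 without N-15), 3 with voom, 438 with the Gata4(loxP/+) controls and 3 without mouse P497, and from 14 (without N-9) to 346 (without N-15) with 1 tumor left out. Control and RhoC tumors share the numbers 1, 6, 7 and 15 but come from different mice, so the numbers do not pair them. With the replicate block, 0 of all tested genes were called and the median of the 39 was -0.97.

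Of these 19 genes, signs turned without N-15 for *Ifit3* (0.62), *Oasl1* (0.24), *Mx1* (0.02), *Cmpk2* (0.40), *Samd9l* (0.08), *Dtx3l* (0.06) and *Gbp2* (0.49), and *Parp9* went to 0.00. Of the other 20, *Ifit2* (0.05), *Ifit3b* (0.49), *Oas3* (0.36), *Herc6* (0.08), *Parp14* (0.06), *Tap1* (0.42) and *Epsti1* (0.13) turned as well. The alternatives that follow were run gene by gene for the 19. With the Gata4(loxP/+) controls they turned for *Ifit3* (0.87), *Oasl1* (0.41), *Mx1* (0.07), *Cmpk2* (0.55), *Samd9l* (0.12), *Isg15* (0.15), *Parp9* (0.05), *Dtx3l* (0.07), *Gbp2* (0.56) and *Gbp3* (0.07). With mouse sums and without N-15 the values were *Ifit3* 0.66, *Mx1* 0.01, *Cmpk2* 0.34, *Samd9l* 0.04, *Parp9* 0.02, *Dtx3l* 0.05 and *Gbp2* 0.46, and with DESeq2 without N-15 they were *Ifit3* 0.62, *Oasl1* 0.25, *Mx1* 0.01, *Cmpk2* 0.40, *Samd9l* 0.08, *Dtx3l* 0.06 and *Gbp2* 0.49. DESeq2 on all tumors turned *Oasl1* (0.25), *Mx1* (0.03), *Cmpk2* (0.36) and *Gbp2* (0.46), the 4 genes of the 39 in which it replaced the count of N-15 as outlying. Voom turned *Cmpk2* (0.02) and *Samd9l* (0.04), the replicate block *Samd9l* (0.02) and *Lgals3bp* (-0.78), and *Samd9l* was 0.11 without N-4 and 0.03 without R-10. With 1 tumor left out at a time, the values ran from -1.18 to 0.62 for *Ifit3*, -1.28 to 0.24 for *Oasl1*, -1.4 to 0.02 for *Mx1*, -0.96 to 0.40 for *Cmpk2*, -0.15 to 0.11 for *Samd9l*, -0.34 to 0.06 for *Dtx3l*, -1.47 to -0.47 for *Oas2* and -1.09 to 0.49 for *Gbp2*. The correlation of *Irf7* with *Ptprc* was -0.02 without N-15.

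The number of tumors and the tumors that share a mouse limit what these tests can detect. Each of the 39 genes had at least 15 reads in every tumor, and the effect of depth on the tests was not examined.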
